A study of Mus musculus with 14 samples.

Results

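The 50 genes described here build and fuel the DNA replication machinery of S phase. They were taken by gene symbol from a fixed list and sorted by role into 8 groups, from origin licensing to the control of entry into S phase. All 50 were listed in each library, among 23647 symbols in one set of libraries and 54632 in the other. BFU-E, or burst-forming unit-erythroid cells, stand early on the path to red cells. They were taken from the fetal liver of C57BL/6 mice, held in a serum-free medium, and their RNA was sequenced. The 4 groups of 3 libraries were compound OB at 100 µM, its own DMSO solvent controls (OB DMSO), compound PD at 3 nM and its own DMSO controls (PD DMSO). No genetic change is labelled in any group. Whether libraries of a group stem from separate cultures is not labelled, so p-values here measure only the spread between these libraries, which may be technical.

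As background, replication starts where the origin recognition complex, CDC6 and CDT1 load the MCM2-7 ring onto DNA. CDC45 and the GINS complex turn that ring into the moving helicase, DNA polymerase alpha with primase lays primers, and polymerases delta and epsilon extend them on the PCNA clamp that the RFC complex loads. Many of these genes are switched on together at the border of G1 and S phase by the E2F factors once cyclin-dependent kinases inactivate the retinoblastoma protein. In red cell progenitors the cell cycle is closely tied to the choice between dividing and maturing.

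Promoters of these genes were searched for the E2F core. Windows of 300 bases, 250 before to 50 after the annotated start, were available from RefSeq (GRCm38.p6) for 42 of the 50 genes. A pair of E2F core motifs of 7 letters, TTCCCGC and TTGGCGC, was searched on both strands. At least 1 of them stood in a window of 23 of the 42 genes (54.8%), against 7.79% of the 27025 genes with a window. TTCCCGC was in 17 of the 42 (40.5%, against 5.29% of all genes) and TTGGCGC in 10 (23.8%, against 2.85%). The longer forms TTTCCCGC and TTTGGCGC, which contain them, were in 8 and 6 of the 42 (19.0% and 14.3%, against 1.24% and 0.585%). Cdt1, Mcm3, Mcm7 and Pola1 held both cores in 1 window, and in none of these 4 windows did the motifs overlap. By contrast TGACGTCA, the full cAMP response element that CREB binds, was in 1 of the 42, the helicase subunit Mcm5 (2.38%, against 2.03% of all genes). The windows of Pold2, Mcm2 and E2f1 held neither core. The share over all genes was taken over every gene with a window, expressed here or not, and was not matched for base composition. These are matches of letters and say nothing of binding.

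The following 4 promoters belong to the genes with a motif that had the smallest unadjusted p after compound OB, and they show where the motif sits. Capitals mark the E2F core motif on either strand. They are given 5′ to 3′ on the strand of the gene, for Pold1 (chr7:44548766-44549065, minus strand), Cdt1 (chr8:122567765-122568064, plus strand), Lig1 (chr7:13279015-13279314, plus strand, 1 of 3 annotated windows) and Chaf1b (chr16:93883651-93883950, plus strand) in GRCm38.p6.
Pold1: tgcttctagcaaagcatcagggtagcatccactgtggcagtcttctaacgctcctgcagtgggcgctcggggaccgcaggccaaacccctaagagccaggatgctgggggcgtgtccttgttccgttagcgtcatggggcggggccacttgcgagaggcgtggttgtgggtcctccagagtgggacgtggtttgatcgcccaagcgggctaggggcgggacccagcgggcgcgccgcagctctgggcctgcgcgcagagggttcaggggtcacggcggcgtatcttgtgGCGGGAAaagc
Cdt1: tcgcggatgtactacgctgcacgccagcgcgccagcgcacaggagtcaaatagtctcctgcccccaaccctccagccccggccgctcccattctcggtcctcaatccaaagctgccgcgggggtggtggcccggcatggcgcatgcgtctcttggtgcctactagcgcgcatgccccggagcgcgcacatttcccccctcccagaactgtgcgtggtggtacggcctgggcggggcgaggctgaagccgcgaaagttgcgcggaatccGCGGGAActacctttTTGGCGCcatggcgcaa
Lig1: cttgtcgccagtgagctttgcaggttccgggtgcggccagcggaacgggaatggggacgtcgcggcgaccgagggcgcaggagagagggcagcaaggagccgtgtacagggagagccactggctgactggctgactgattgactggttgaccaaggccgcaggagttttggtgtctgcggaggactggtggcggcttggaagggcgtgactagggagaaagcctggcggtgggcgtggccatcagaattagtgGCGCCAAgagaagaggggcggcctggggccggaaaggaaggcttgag
Chaf1b: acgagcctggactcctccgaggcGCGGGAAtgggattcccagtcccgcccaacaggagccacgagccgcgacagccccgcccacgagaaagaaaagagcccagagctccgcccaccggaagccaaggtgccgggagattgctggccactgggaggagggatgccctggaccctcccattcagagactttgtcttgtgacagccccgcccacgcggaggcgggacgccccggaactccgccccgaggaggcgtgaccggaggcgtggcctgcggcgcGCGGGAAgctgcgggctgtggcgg
In Pold1 the motif began at base 290 of the window and in Lig1 at base 254. Only the printed window of the 3 annotated for Lig1 held a core, and it was printed for that reason. Cdt1 had its pair at bases 269 and 284, and Chaf1b at bases 24 and 277. Thus 5 of the 6 matches lay in the stretch after the annotated start.

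Levels are in FPKM, fragment numbers corrected for transcript length and library size, so levels of different genes can be compared within a set. The sets list different numbers of genes, and their levels are given side by side only. Replication genes were among the more abundant transcripts: 49 of the 50 lay above the median of all genes tested in OB DMSO (median 58.7 FPKM for the members and 15.5 for all 10104 genes) and likewise 49 of 50 in PD DMSO (58.1 and 14.3 for 11901 genes). Pcna, the sliding clamp, was the highest member in all 4 groups, with a mean of 663 FPKM with compound OB and 714 in OB DMSO, and 389 with compound PD and 418 in PD DMSO. Rrm2, the regulated subunit of ribonucleotide reductase, which makes deoxynucleotides, came next in all 4 groups (251 and 264, and 264 and 311), in the OB set level with the helicase subunit Mcm7 (250 and 243). The GINS subunit Gins3 was the lowest member in all 4 groups (11.0 and 11.1, and 9.08 and 8.85).

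**Figure D1:**
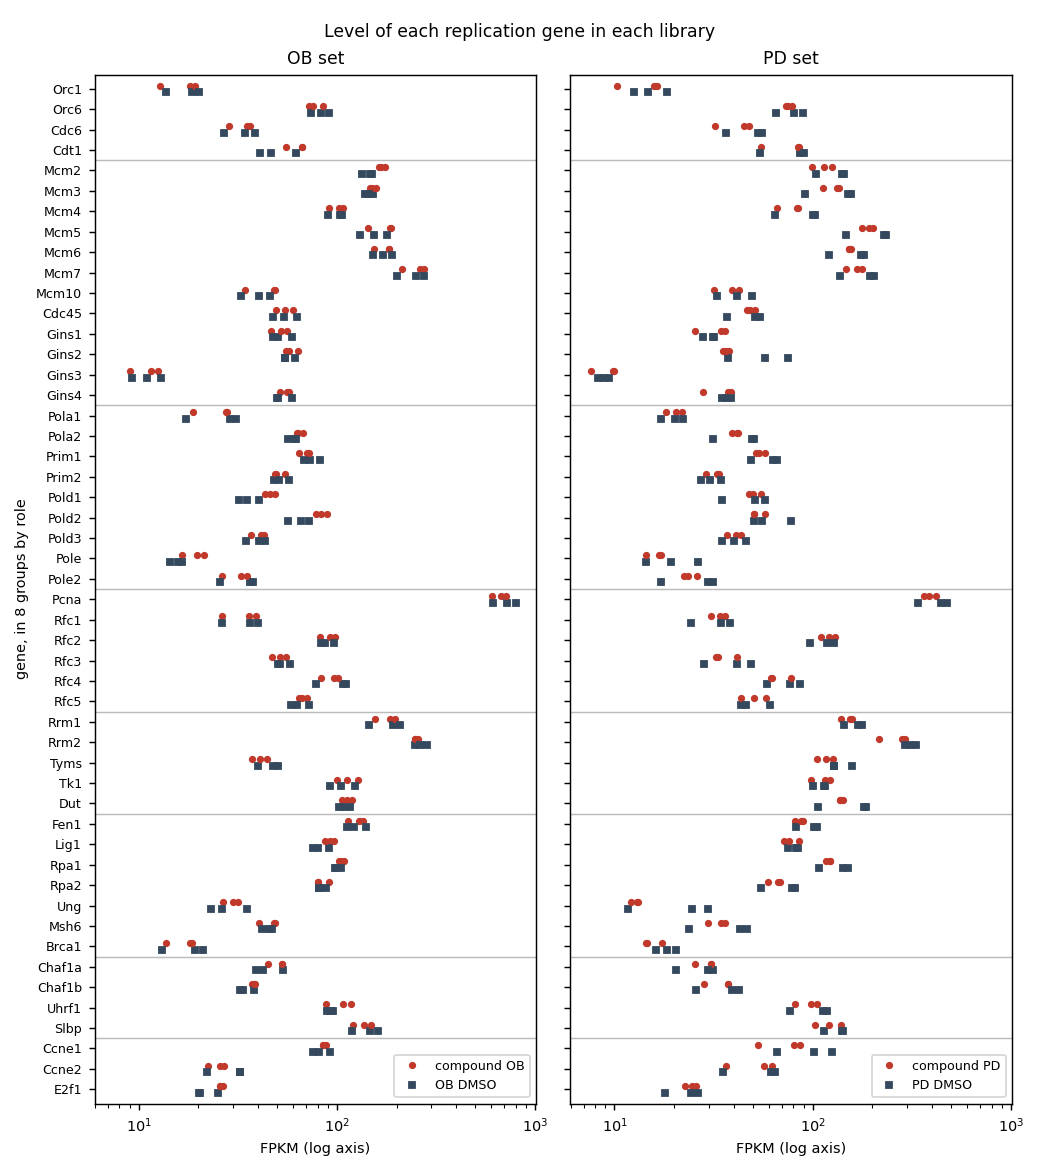
FPKM of each of the 50 genes (log axis) in the 6 libraries of each set, with circles for compound and squares for DMSO; lines separate the 8 groups by role. Pcna stands at the top of both sets and Gins3 at the bottom, and compound and DMSO points lie close together for most genes.

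Subunits of 1 complex were not listed at equal levels. Gins3 lay below its partners Gins1, Gins2 and Gins4 in all 12 libraries, by 4.50 to 6.12 times in the OB set and 3.14 to 8.50 times in the PD set. The catalytic subunits of the polymerases were below their smaller partners: Pola1 was below Pola2 in all 12 libraries (by 1.95 to 3.55 times in the OB set and 1.79 to 2.44 times in the PD set), and Pole below Pole2 in all 12 (by 1.53 to 2.33 and 1.12 to 1.81 times). Pold1 was below Pold2 in 6 of 6 libraries of the OB set and 5 of 6 of the PD set. Rfc1, the large subunit of the clamp loader, was below Rfc2, Rfc4 and Rfc5 in all 12 libraries and below Rfc3 in 6 of 6 and 4 of 6. In the MCM ring Mcm7 exceeded Mcm4 in every library, by 2.23 to 2.60 times in the OB set and 1.93 to 2.24 times in the PD set. Cyclin E1 (Ccne1) exceeded cyclin E2 (Ccne2) in all 12, by 2.35 to 4.16 and 1.39 to 1.92 times. One order turned between the sets: the chromatin assembly subunit Chaf1b was below Chaf1a in 6 of 6 libraries of the OB set and in 0 of 6 of the PD set. Tyms, thymidylate synthase, ranged from 37.5 to 50.8 FPKM in the OB set and 105 to 157 in the PD set. A second row under its name in the OB set is the pseudogene Tyms-ps, whose name had been split at the hyphen, and was not used. Overlapping genes and near-identical copies have uncertain values, since the counting rule is not given in the sources used here.

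Libraries differed among themselves in ways that touch the results. In the OB set compound OB replicate 1 and OB DMSO replicate 1 stood apart from the other 4. OB DMSO replicate 2 stood apart in Rn45s, the 45S precursor of ribosomal RNA, which was at 357, 955 and 175 FPKM with compound OB and 324, 12380 and 542 in OB DMSO. The 9 erythroid progenitor genes summed to 1414, 1452 and 1434 with compound OB and 1416, 1410 and 1528 in OB DMSO. Among them the receptor gene Kit was higher in every compound OB library (36.8, 41.7 and 36.0, against 25.9, 23.1 and 23.2 in OB DMSO), and the transferrin receptor gene Tfrc was lower within every replicate number (363, 547 and 584 with compound OB, against 372, 693 and 736 in OB DMSO). Klf1 (281, 254 and 241, against 277, 208 and 238) and Epor (147, 122 and 115, against 145, 88.8 and 104) were higher within every replicate number. Gata1 was mixed (175, 151 and 150, against 185, 132 and 141). In the OB set 11 granulocyte precursor genes summed to 489, 166 and 181 FPKM in compound OB replicates 1, 2 and 3, and to 585, 148 and 146 in OB DMSO replicates 1, 2 and 3. There 8 megakaryocyte genes summed to 973.8, 580.5 and 621.1 with compound OB and 1365, 479.8 and 564.1 in OB DMSO. In the PD set the erythroid progenitor genes summed to 1199, 1328 and 1273 with compound PD and 1695, 1341 and 1304 in PD DMSO, while the same granulocyte precursor genes summed to 29920, 31170 and 37600 FPKM with compound PD and 11720, 17690 and 16910 in PD DMSO. In PD DMSO replicate 1 the 4 adult globin genes took 32.3% of the summed FPKM, against 12.8% to 19.8% with compound PD and 16.6% and 17.7% in the other PD DMSO libraries. No such share is available for the OB set, where rows with names broken at a hyphen were removed. FPKM give no counts, so the depth of the libraries is unknown. Alb, a hepatocyte marker, reached at most 0.04 FPKM in any library. The list of 6 hepatocyte genes that holds it summed to 1.43 to 2.7 FPKM in the OB set and 0 to 1.31 in the PD set. In the OB set 1 of the 6 reached 1 FPKM in every library. In such bulk samples fewer cells in S phase and less RNA per cell cannot be told apart.

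After compound OB no replication gene passed the test. The members' median log2 fold change was 0.03, the same as over all genes tested (0.03), and it was −0.0071 with median-ratio scaling and −0.0047 with quantile normalization (23 and 24 of 50 above 0, against 32 of 50 as deposited). As deposited, 58.7% of all genes lay above 0. Without compound OB replicate 1, or without OB DMSO replicate 3, the members' median was 0.09 (43 and 44 of 50 above 0) and that of all genes 0.05. Limma on log2(FPKM + 1) called 0 of the 50 genes after compound OB and 0 of all 10104 genes (0.0%) at a Benjamini-Hochberg adjusted p under 0.05. At an unadjusted p under 0.05, 3 members were higher (Pold2, Pold1 and Mcm2) and 0 lower, against 2.45% and 1.23% of all genes. The 3 libraries of compound OB lay above all 3 of OB DMSO for 5 members, namely Mcm2, Pola2, Pold1, Pold2 and E2f1, and below for 0, against 5.32% and 3.4% of all genes. Fold changes ran from −0.19 to 0.37 with standard errors of 0.08 to 0.25. The 95% interval lay within ±0.5 log2 units for 38 of the 50 genes, and the widest reached 0.74 (Cdt1) and −0.63 (Pola1). These errors and intervals, and those of the genes below, are from a fit that takes no account of replicate numbers. With the replicate number as a block the standard error of every member was smaller. It was 0.08 in place of 0.25 for Pola1, 0.05 in place of 0.12 for Pcna and 0.09 in place of 0.11 for Pold1.

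**Figure D2:**
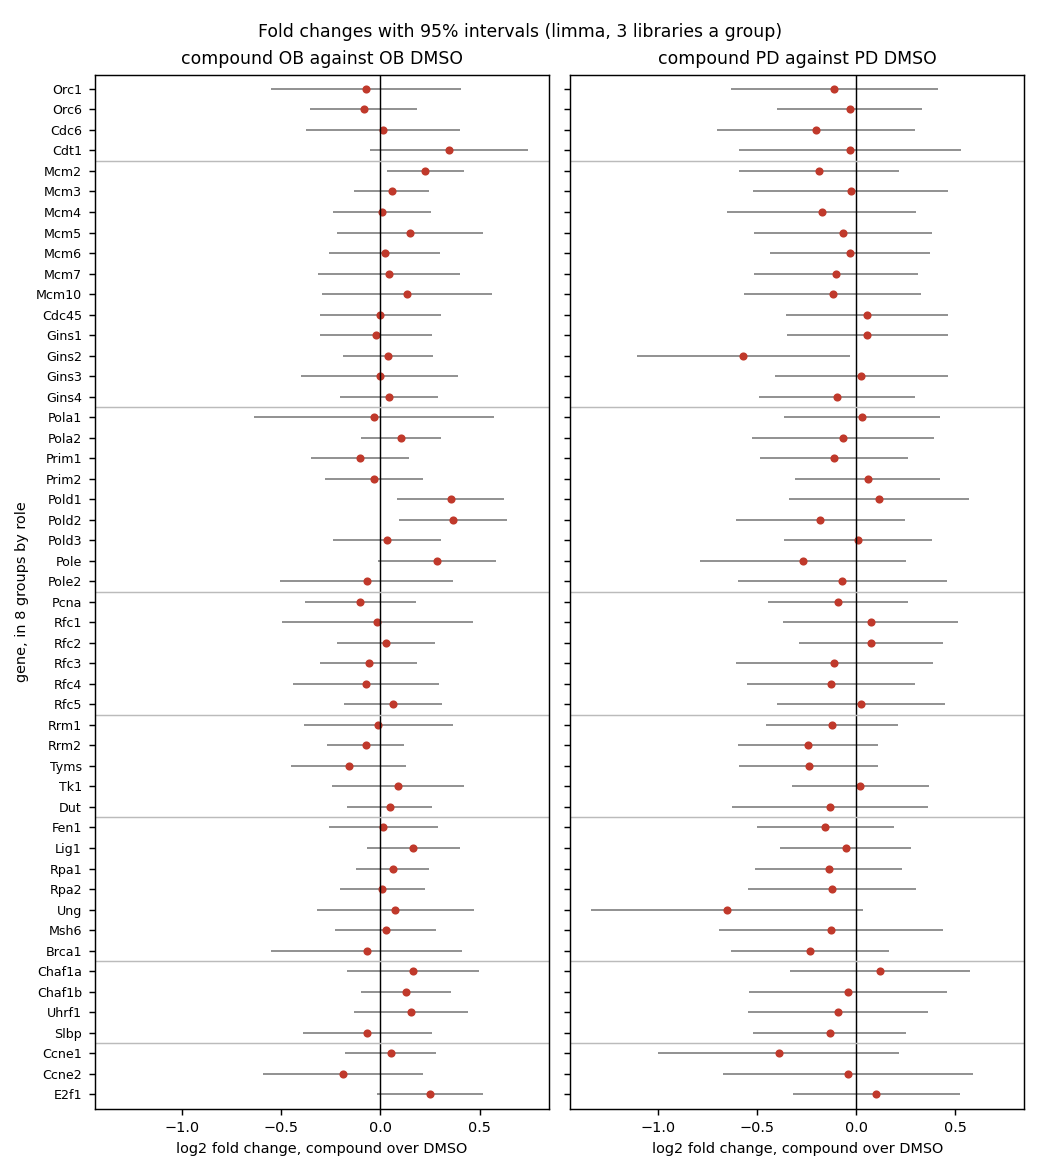
Log2 fold change (compound over DMSO, on the log2(FPKM + 1) scale) of the 50 genes with its 95% interval from limma, compound OB left and compound PD right. The fit takes no account of replicate numbers. The intervals of Pold1, Pold2 and Mcm2 after compound OB and of Gins2 after compound PD leave out 0, and none of the 50 passed the adjusted threshold in either panel.

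DNA polymerase delta, which copies the lagging strand, held the smallest p values after compound OB. Pold1, its catalytic subunit (GRCm38.p6, as for the genes below, chromosome 7, 44532744 to 44548815), measured 45.9, 49.0 and 43.3 FPKM with compound OB and 40.6, 32.2 and 35.1 in OB DMSO (46.1 ± 2.84 and 35.9 ± 4.27, SD, n = 3; log2 0.35, SE 0.11, limma adjusted p = 1.00). Pold2, its second subunit (chromosome 11, 5872180 to 5878256), measured 78.9, 89.4 and 83.1 with compound OB and 72.7, 56.9 and 65.6 in OB DMSO (83.8 ± 5.31 and 65.1 ± 7.91, SD, n = 3; log2 0.37, SE 0.11, limma adjusted p = 1.00). In both genes every compound OB library stood above every DMSO library. Pole, the catalytic subunit of polymerase epsilon, measured 16.6, 21.5 and 19.7 with compound OB and 14.4, 15.8 and 16.6 in OB DMSO, with a narrow overlap (log2 0.28, SE 0.13, limma adjusted p = 1.00). The other 6 members of the polymerase and primase group had log2 fold changes of −0.10 to 0.11, among them the third delta subunit Pold3 at 0.03. Pola2, the accessory subunit of polymerase alpha, had groups that did not overlap, at 62.9, 63.9 and 67.4 with compound OB and 61.5, 56.4 and 62.5 in OB DMSO (log2 0.11, SE 0.09, limma adjusted p = 1.00).

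In the helicase group Mcm2 (chromosome 6, 88883474 to 88898780) measured 163, 175 and 167 FPKM with compound OB and 151, 134 and 146 in OB DMSO (168 ± 5.69 and 144 ± 8.78, SD, n = 3; log2 0.23, SE 0.08, limma adjusted p = 1.00). The compound OB libraries lay above all DMSO libraries. Its partners in the ring, Mcm3 to Mcm7, had log2 fold changes of 0.01 to 0.15, and the summed helicase group was 1290 ± 113 with compound OB and 1227 ± 113 in OB DMSO (SD, n = 3). Of the 12 genes in this group 10 lay above 0, against 58.7% of all genes, and the group's median was 0.04. E2f1, the factor that switches on S phase genes (chromosome 2, 154559400 to 154569892), measured 26.6, 25.8 and 25.8 with compound OB and 25.0, 20.2 and 20.3 in OB DMSO (26.0 ± 0.440 and 21.9 ± 2.76, SD, n = 3; log2 0.25, SE 0.11, limma adjusted p = 1.00). Its groups did not overlap, but OB DMSO replicate 1 came close to the compound OB libraries. Cdt1, the licensing factor, measured 66.5, 66.4 and 55.3 with compound OB and 61.9, 40.9 and 46.3 in OB DMSO (log2 0.35, SE 0.17, limma adjusted p = 1.00), and here OB DMSO replicate 1 lay within the compound OB range.

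The clamp and the nucleotide enzymes had values near or below 0. Pcna measured 606, 674 and 710 FPKM with compound OB and 614, 725 and 801 in OB DMSO (663 ± 52.9 and 714 ± 93.9, SD, n = 3; log2 −0.10, SE 0.12, limma adjusted p = 1.00). Tyms measured 37.5, 41.0 and 44.3 with compound OB and 39.8, 47.4 and 50.8 in OB DMSO (40.9 ± 3.43 and 46.0 ± 5.61, SD, n = 3; log2 −0.16, SE 0.12, limma adjusted p = 1.00). For both genes the compound OB library was the lower one within each replicate number, while the groups as a whole overlapped. Of the 5 nucleotide supply genes 2 lay above 0, and their sum was 697 ± 40.8 with compound OB and 708 ± 45.9 in OB DMSO (SD, n = 3). DNA ligase I (Lig1), which seals lagging-strand fragments, measured 92.8, 96.9 and 87.2 with compound OB and 91.0, 75.9 and 80.0 in OB DMSO (log2 0.17, SE 0.10, limma adjusted p = 1.00). Chaf1b measured 37.5, 38.2 and 38.7 with compound OB and 38.2, 32.6 and 33.7 in OB DMSO (log2 0.13, SE 0.09, limma adjusted p = 1.00), overlapping through OB DMSO replicate 1.

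The origin recognition subunits Orc1 and Orc6 and Cdc6 had log2 fold changes of −0.07, −0.08 and 0.01. Uhrf1, which guides maintenance DNA methylation, measured 87.7, 118 and 107 FPKM with compound OB and 89.0, 93.5 and 95.8 in OB DMSO (log2 0.15, SE 0.12, limma adjusted p = 1.00). Rrm2 measured 256, 249 and 248 with compound OB and 285, 247 and 262 in OB DMSO (log2 −0.07, SE 0.08, limma adjusted p = 1.00). In both genes the groups overlapped. Of the 7 genes of strand joining, single-strand binding and repair 6 lay above 0, with the flap nuclease Fen1 at 0.02, the mismatch repair factor Msh6 at 0.03 and the single-strand binding subunit Rpa1 at 0.06. Cyclin E2 (Ccne2) was the lowest of all members at −0.19 (22.5, 25.8 and 27.0 FPKM with compound OB; 22.2, 32.4 and 32.6 in OB DMSO; SE 0.17).

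**Figure D3:**
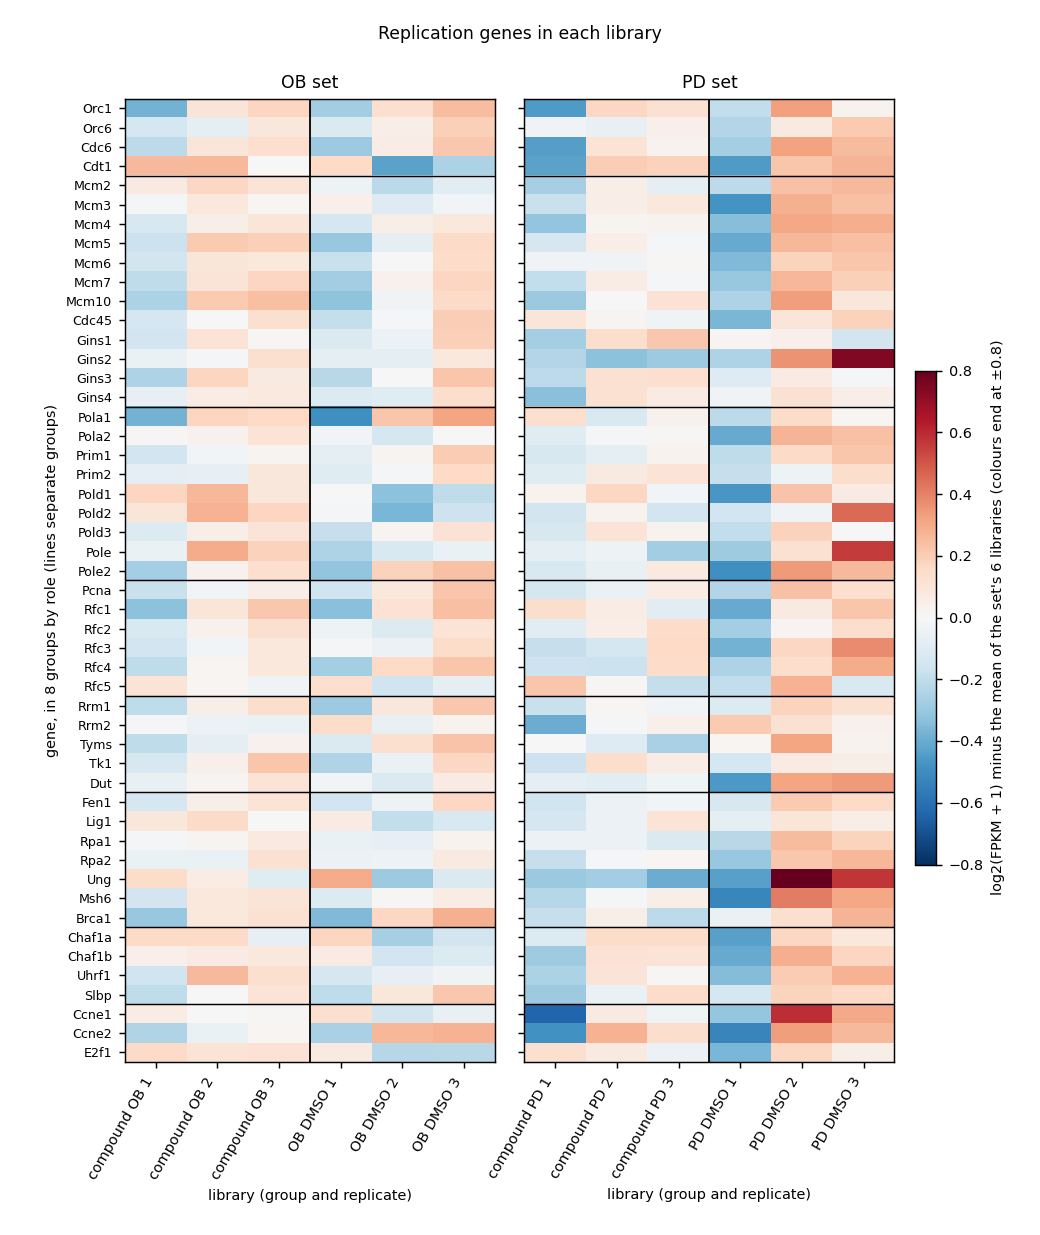
Log2(FPKM + 1) of each gene in each library minus the mean of the 6 libraries of its set, with compound libraries left and DMSO right in each panel; red is above and blue below that mean. In the OB set both replicate 1 libraries are blue for most genes, and in the PD set PD DMSO replicate 1 is blue and PD DMSO replicates 2 and 3 are red for most.

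In the OB set the libraries of replicate 1 stood apart for many replication genes. For 28 of the 50 genes both replicate 1 libraries lay below the other 4 (29.0% of all genes), and for 4 both lay above (30.1% of all genes). Pola1, the catalytic subunit of polymerase alpha, is an example, at 18.8 FPKM in compound OB replicate 1 and 17.3 in OB DMSO replicate 1 and between 27.7 and 30.9 in the other 4. Mki67, a marker of cycling cells that is no member, followed it at 97.3 in compound OB replicate 1 and 101 in OB DMSO replicate 1, and at 171 to 201 in the others. Cdkn1a, which encodes the cell cycle inhibitor p21, went the other way, at 227, 68.4 and 67.5 with compound OB and 321, 76.1 and 81.9 in OB DMSO in the order of replicates. OB DMSO replicate 2, the library with the high Rn45s, held the lowest of the 6 values for 16 of the 50 genes (38.1% of all genes), among them Pold1, Pold2, Mcm2, E2f1, Cdt1, Pola2, Lig1 and Chaf1b. Without it the log2 fold changes were 0.28 for Pold1, 0.27 for Pold2, 0.18 for Mcm2, 0.20 for E2f1 and 0.22 for Cdt1, each with a limma adjusted p of 1.00. The part of the other differences between libraries in the results was not tested. Within replicate numbers 13 genes were higher with compound OB in 3 of 3 and 5 lower in 3 of 3, against 23.2% and 16.7% of all genes. A fit with the replicate number as a block also called 0 of the 50 (smallest limma adjusted p = 0.257, Pold1), against 7 of all genes (0.0693%). In that fit 6 members were higher and 1 lower at an unadjusted p under 0.05, against 9.84% and 5.07% of all genes. Without replicate 1 of the OB set the blocked fit called 5 members, all higher with compound OB: Pold2 (log2 0.49, limma adjusted p = 0.00676), Pold1 (0.44, 0.0142), Cdt1 (0.47, 0.0184), Mcm2 (0.28, 0.026) and E2f1 (0.33, 0.0369). That fit rests on 2 pairs and called 1126 of all genes, 11.3% in either direction and 9.63% higher, so the members' share of 5 in 50 is near the background. Without replicate 2 the blocked fit called 0 members and 1.45% of all genes, with Pold2 at 0.23 (limma adjusted p = 0.255), Pold1 at 0.24 (0.263), Cdt1 at 0.18 (0.438), Mcm2 at 0.15 (0.427) and E2f1 at 0.21 (0.458).

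**Figure D4:**
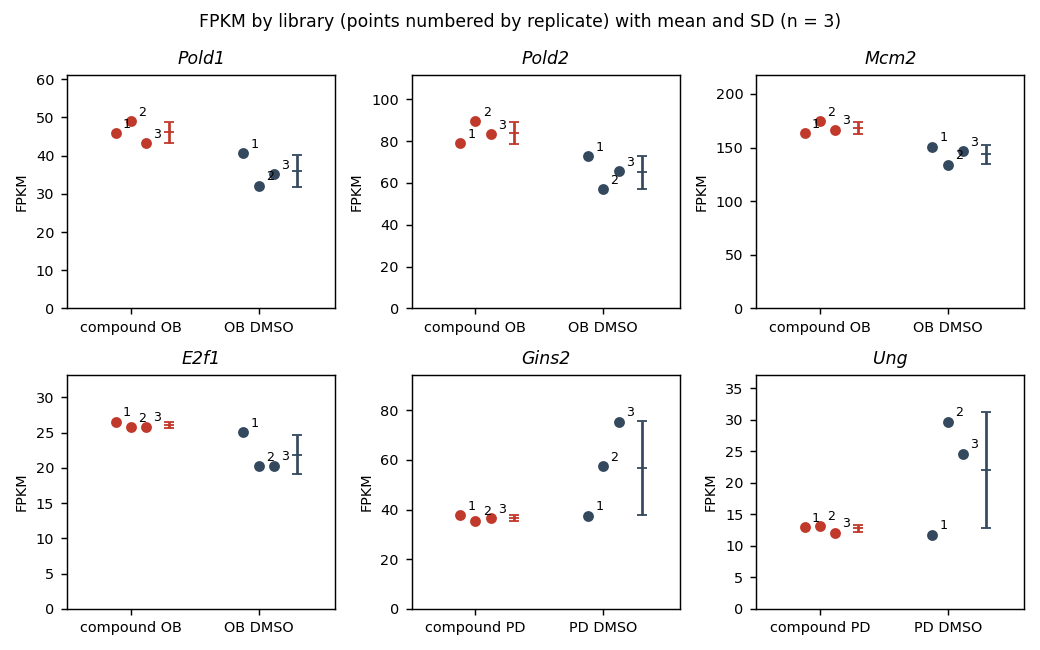
FPKM of 6 genes in each library, points numbered by replicate, with the mean and SD (n = 3) beside them; Pold1, Pold2, Mcm2 and E2f1 in the OB set and Gins2 and Ung in the PD set. The compound OB points lie above the OB DMSO points, and for Gins2 and Ung PD DMSO replicate 1 lies with the compound PD points.

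After compound PD no replication gene passed the test either, and the list lay slightly below 0. The median log2 fold change of the members was −0.09, with 37 of 50 below 0, while the median over all genes was 0.06 with 59.1% of them above 0. With median-ratio scaling the members' median was −0.19 (47 of 50 below 0) and that of all genes −0.03, and with quantile normalization these were −0.12 (43 of 50) and −0.02. Limma called 0 of the 50 genes after compound PD, against 3 of all 11901 genes (0.0252%). At an unadjusted p under 0.05, 0 members were higher and 1 was lower, Gins2, against 9.04% and 1.61% of all genes. The groups did not overlap for 0 members on the higher side and 1 on the lower, Tyms, against 13.1% and 3.71% of all genes. Standard errors were 0.15 to 0.30, and the 95% interval lay within ±0.5 log2 units for 16 of the 50 genes. The summed FPKM of the granulocyte precursor genes was higher in all 3 compound PD libraries than in any PD DMSO library, as given above. That of 8 megakaryocyte genes was 7542, 4244 and 4719 with compound PD and 4578, 2347 and 2313 in PD DMSO. That of 8 mast cell and basophil genes was 2773, 1366 and 1381 with compound PD and 1553, 803 and 859 in PD DMSO. Of these lists, all 11 and all 8 of the first 2 and 6 or 7 of 8 of the last reached 1 FPKM in every library. Mki67 was at 125 to 132 FPKM with compound PD and 129 to 147 in PD DMSO. Of the erythroid progenitor genes, Tfrc was lower in every compound PD library (319, 429 and 437, against 634, 480 and 464 in PD DMSO) and Kit higher in every one (41.2, 28.8 and 27.1, against 20.4, 21.8 and 22.7). Klf1 was lower in every one (125, 182 and 168, against 204, 186 and 185). The groups overlapped for Gata1 (134, 135 and 132, against 142, 134 and 134) and Epor (84.2, 87.2 and 81.9, against 93.2, 81.0 and 79.1). The part of these differences in the members' results was not tested.

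Gins2, a subunit of the helicase complex (chromosome 8, 120581266 to 120589075), had the smallest p of the members after compound PD. It measured 37.8, 35.5 and 36.4 FPKM with compound PD and 37.6, 57.5 and 75.5 in PD DMSO (36.6 ± 1.18 and 56.8 ± 19.0, SD, n = 3; log2 −0.57, SE 0.24, limma adjusted p = 0.439). Ung, the uracil-DNA glycosylase that removes uracil from DNA (chromosome 5, 114130366 to 114139321), measured 13.0, 13.2 and 12.1 with compound PD and 11.7, 29.7 and 24.6 in PD DMSO (12.8 ± 0.595 and 22.0 ± 9.27, SD, n = 3; log2 −0.65, SE 0.30, limma adjusted p = 0.496). In both genes the compound PD libraries agreed closely, and PD DMSO replicate 1 stood with them while the other DMSO libraries were higher. Without PD DMSO replicate 1 both passed, Ung with log2 −1.03 (limma adjusted p = 0.0292) and Gins2 with −0.83 (0.0405), in a fit that called 165 of all genes (1.38%, and 0.301% lower). The blocked fit without replicate 1 of the PD set called the same 2 members (1.7% of all genes). It also leaves out PD DMSO replicate 1, so it is no separate support, and the replicate numbers do not pair the PD libraries. Without PD DMSO replicate 2 they were −0.39 (Ung) and −0.53 (Gins2), and without PD DMSO replicate 3 −0.52 (Ung) and −0.34 (Gins2), with no call. Gins1, Gins3 and Gins4 had log2 fold changes of 0.06, 0.03 and −0.10 with all 6 libraries.

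PD DMSO replicate 1 stood apart for these genes. It held the lowest of the 6 values for 33 of the 50 genes, and 49.8% of all genes, and the summed FPKM of the 50 was 3550, 4034 and 4055 with compound PD and 3419, 4671 and 4575 in PD DMSO. For 30 of the 50 genes PD DMSO replicates 2 and 3 both lay above all 3 compound PD libraries, against 20.8% of all genes. This count leaves out the control library already seen to be low for most members, so it is no separate support for a lower level. Without PD DMSO replicate 1 the members' median was −0.26 with 49 of 50 below 0, and that of all genes −0.02. Without PD DMSO replicate 2 the members' median was 0.0038 (24 of 50 below 0) and that of all genes 0.12. Without PD DMSO replicate 3 these were −0.0031 (27 of 50 below 0) and 0.11, and without compound PD replicate 1 −0.03 and 0.03. The size and sign of the list's median thus depended on which PD DMSO libraries were used, but in each of these fits it lay below the median of all genes.

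**Figure D5:**
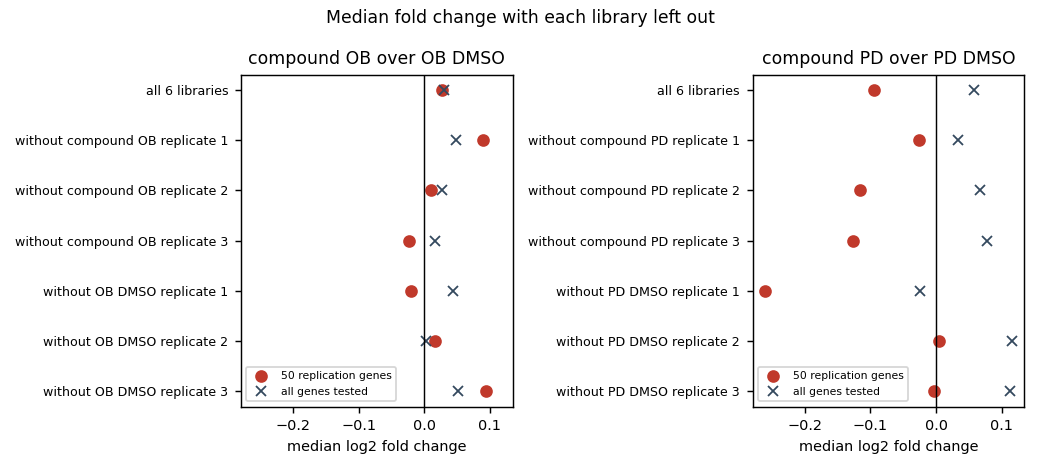
Median log2 fold change of the 50 genes (circles) and of all genes tested (crosses), with all 6 libraries and with each library left out in turn, compound OB left and compound PD right. For compound PD the members' median runs from −0.26 without PD DMSO replicate 1 to 0.0038 without PD DMSO replicate 2; for compound OB it runs from −0.02 to 0.09.

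The other genes named for compound PD had groups that overlapped, except Tyms. Cyclin E1 (Ccne1), which drives entry into S phase, measured 52.7, 86.8 and 80.8 FPKM with compound PD and 66.1, 125 and 102 in PD DMSO (73.4 ± 18.2 and 97.6 ± 29.5, SD, n = 3; log2 −0.39, SE 0.27, limma adjusted p = 0.721). The licensing factor Cdc6 measured 32.3, 47.8 and 45.0 with compound PD and 36.4, 55.4 and 52.9 in PD DMSO (log2 −0.20, SE 0.22, limma adjusted p = 0.874). In both genes the replicate 1 library was the lowest of each group. Tyms measured 126, 117 and 105 with compound PD and 127, 157 and 128 in PD DMSO (116 ± 10.6 and 138 ± 16.8, SD, n = 3; log2 −0.24, SE 0.15, limma adjusted p = 0.690), and its groups did not overlap, by a narrow margin. Slbp, which binds the stem-loop of histone mRNA, measured 103, 121 and 140 with compound PD and 114, 143 and 141 in PD DMSO (log2 −0.13, SE 0.17, limma adjusted p = 0.904). Pole measured 16.7, 17.2 and 14.4 with compound PD and 14.3, 19.4 and 26.5 in PD DMSO (log2 −0.27, SE 0.23, limma adjusted p = 0.810). The clamp loader subunit Rfc4 measured 62.2, 62.0 and 77.4 with compound PD and 58.7, 77.1 and 86.1 in PD DMSO (log2 −0.13, SE 0.19, limma adjusted p = 0.921). Both overlapped, with PD DMSO replicate 1 below every compound PD library. Single libraries moved these values: without compound PD replicate 1 Ccne1 was −0.17, Cdc6 −0.03 and Slbp −0.02, and without PD DMSO replicate 3 Pole was −0.05 and Rfc4 −0.0093. Without PD DMSO replicate 1 the same 5 were −0.64, −0.39, −0.24, −0.47 and −0.28, and none of them was called. The helicase group summed to 1024 ± 76.0 with compound PD and 1114 ± 232 in PD DMSO, the clamp and clamp loader to 697 ± 39.8 and 729 ± 119, and the nucleotide supply group to 781 ± 56.6 and 879 ± 66.8 (SD, n = 3).

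By role, 0 of 4 licensing genes, 3 of 12 helicase genes, 4 of 9 polymerase and primase genes, 3 of 6 clamp genes, 1 of 5 nucleotide supply genes, 0 of 7 strand joining and repair genes, 1 of 4 chromatin genes and 1 of 3 G1 to S genes lay above 0 after compound PD. The share over all genes was 59.1%. For each of Mcm2 to Mcm7 both PD DMSO replicates 2 and 3 lay above all compound PD libraries, as for 20.8% of all genes. Mcm5, for example, was at 177, 201 and 192 FPKM with compound PD and 147, 233 and 230 in PD DMSO (log2 −0.07, SE 0.20, limma adjusted p = 0.971). Dut, which removes dUTP from the nucleotide pool, measured 138, 137 and 142 with compound PD and 106, 181 and 185 in PD DMSO (log2 −0.13, SE 0.22, limma adjusted p = 0.932). In both, PD DMSO replicate 1 was the lowest library and the other PD DMSO libraries were the highest. Rrm2 took another order, at 216, 284 and 293 with compound PD and 331, 310 and 291 in PD DMSO (log2 −0.24, SE 0.16, limma adjusted p = 0.690), with PD DMSO replicate 1 the highest of the 6. Rfc1 measured 36.0, 33.9 and 30.5 with compound PD and 24.4, 34.3 and 38.1 in PD DMSO (log2 0.07, SE 0.20), and Uhrf1 81.7, 105 and 98.5 with compound PD and 76.7, 113 and 119 in PD DMSO (log2 −0.09, SE 0.20). Cdt1 and Pold2, among the largest after compound OB, had 55.1, 85.3 and 84.4 (Cdt1) and 50.8, 57.4 and 50.7 FPKM (Pold2) with compound PD, against 54.1, 86.7 and 90.0 (Cdt1) and 50.5, 55.3 and 77.4 FPKM (Pold2) in PD DMSO.

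The effects of the compounds on the replication genes were not shown to differ. A limma fit of all 12 libraries tested the compound OB effect minus the compound PD effect and called 0 of the 50 genes and 0 of 10352 genes (0.0%). The difference was above 0 for 39 of the 50 members with a median of 0.14, against 47.0% of all genes and a median of −0.02. At an unadjusted p under 0.05 it was above 0 for 2 members and below for 0, against 1.68% and 5.72% of all genes. The 2 were Pold2 (difference 0.55, 95% interval 0.05 to 1.04, limma adjusted p = 0.605) and Gins2 (0.61, 0.01 to 1.20, 0.658). The largest differences otherwise were those of Ung (0.72, −0.08 to 1.53, limma adjusted p = 0.731) and Pole (0.55, −0.04 to 1.14, 0.716). For the other genes named by role the intervals were −0.23 to 1.12 (Ccne1), −0.32 to 1.07 (Cdt1), −0.29 to 0.78 (Uhrf1), −0.22 to 0.56 (Rrm2) and −0.71 to 0.54 (Rfc1). With the replicate block and without replicate 1 of the PD set the differences of Gins2 (0.89, limma adjusted p = 0.0270) and Ung (1.12, 0.0327) passed, with 2.47% of all genes. That fit too leaves out PD DMSO replicate 1. Compound, dose and set go together, so a difference between compounds cannot be told apart from one between sets.

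Other genes of the pathway gave no call either. Of 34 further replication genes, 15 nucleotide supply genes, 24 genes that control S phase entry and 30 G2 and mitosis genes, limma called 0 after either compound. All were tested except the low cyclin D1 (Ccnd1) after compound OB and Cdkn1c and Cdkn2a after both. After compound OB their medians were 0.0029, 0.02, 0.06 and −0.03. At an unadjusted p under 0.05 there were 2, 0, 0 and 1 higher and 0 lower, against 2.45% and 1.23% of all genes. The maintenance DNA methyltransferase Dnmt1 measured 87.0, 90.2 and 78.3 FPKM with compound OB and 75.4, 62.5 and 63.4 in OB DMSO (log2 0.34, SE 0.11, limma adjusted p = 1.00). The replication helicase Recql4 measured 23.5, 25.6 and 23.7 with compound OB and 21.3, 17.5 and 20.2 in OB DMSO (log2 0.29, SE 0.11, limma adjusted p = 1.00). Neither of these had overlapping groups, as for 5 of the 34 genes of that list and 5.32% of all genes on the higher side. Cad, which starts pyrimidine synthesis, had log2 0.50 (SE 0.24), Impdh2 of guanine nucleotide synthesis 0.20 (SE 0.10), E2f4 0.34 (SE 0.14), cyclin D2 (Ccnd2) 0.24 (SE 0.11), Mybl2 0.28 (SE 0.12), Cdc25b 0.25 (SE 0.11) and Cdkn1a −0.31 (SE 0.68), each with a limma adjusted p of 1.00.

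After compound PD the medians of these lists were −0.03, −0.07, −0.03 and 0.04. At an unadjusted p under 0.05 there were 0, 0, 2 and 2 higher and 0 lower, against 9.04% and 1.61% of all genes. Cdkn2d, an inhibitor of the cyclin D kinases, measured 69.5, 66.8 and 63.4 FPKM with compound PD and 57.0, 33.1 and 38.4 in PD DMSO (66.6 ± 3.06 and 42.9 ± 12.5, SD, n = 3; log2 0.66, SE 0.21, limma adjusted p = 0.279). Every compound PD library was above every PD DMSO library, as for 13.1% of all genes. Without PD DMSO replicate 1 Cdkn2d passed the test, in a fit that called 1.38% of all genes. Cyclin D1 (Ccnd1) measured 2.94, 1.99 and 1.11 with compound PD and 0.44, 0.83 and 0.42 in PD DMSO (log2 0.91, SE 0.33, limma adjusted p = 0.357), at levels where a pseudocount of 1 understates the change. The cytokinesis scaffold Anln had log2 0.41 (SE 0.17, limma adjusted p = 0.433) and the mitotic factor Foxm1 0.37 (SE 0.16, 0.461). The MCM-binding protein Mcmbp had 0.37, the origin subunit Orc2 −0.27, the purine synthesis enzyme Paics −0.21 and the nucleoside diphosphate kinase Nme2 0.28 (limma adjusted p = 0.637, 0.752, 0.822 and 0.840). Cdkn1a measured 222, 351 and 338 with compound PD and 414, 285 and 272 in PD DMSO (log2 −0.09, SE 0.23, limma adjusted p = 0.960), with replicate 1 the lowest of the compound PD libraries and the highest of the PD DMSO libraries.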

How the data were processed

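RNA of cultured BFU-E was sequenced in 12 libraries. The values are FPKM per gene as deposited by the authors, 1 file per library, with no counts, so the depth is unknown. Per the submitters' processing notes, STAR and mm10 were used; how fragments were counted, with which annotation and strand setting, is not given in the sources used here. In the OB set 380 rows whose gene name was broken at a hyphen, with values shifted, were removed; in each set 27 names turned into dates were left out, and in the PD set 93 repeated symbols. No member was lost.

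Compound and matching DMSO libraries were fitted with limma 3.58.1 (R 4.3.3, statmod 1.5.0), trended and robust, on log2(FPKM + 1), keeping genes whose mean reached 1 FPKM. Fold changes are on that log2(FPKM + 1) scale and are understated where levels are low. Two-sided p-values were Benjamini-Hochberg adjusted over all genes tested. Replicate numbers were not a block, except in an alternative. In the OB set same-numbered libraries deviated together from their group means (r = 0.832, 0.434 and 0.652 over genes). Compound OB replicate 2 with OB DMSO replicate 3 had r of 0.327, and compound OB replicate 3 with OB DMSO replicate 2 had 0.413. The numbers thus pair the libraries of replicate 1, and the pairing of replicates 2 and 3 is less certain. Named genes were the member of each role group with the smallest p and the 3 largest fold changes in each comparison, and the 2 smallest p of each other list. Members and lists were chosen with earlier results of these data known. The rule for printed promoters asked for the comparison with more members called; both had 0, so the one with more at an unadjusted p under 0.05 was taken. TGACGTCA, TTTCCCGC and TTTGGCGC were added to the search later. The 2 chromatin samples are not analysed here. Alternatives were other pseudocounts, filters, scalings, moderation, the replicate block and each library left out. Other software was numpy 2.4.6, matplotlib 3.10.9, pandas 2.3.3 and Python 3.11.15.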

Additional observations from a re-analysis of the deposited data

How the results depend on the processing

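With other pseudocounts (0.1, 0.5), filters (none, a mean of at least 5 FPKM), scalings and moderation, 0 members were called for compound OB, compound PD or their difference, and the replicate block left all 3 at 0. With 1 library left out, the members called after compound OB stayed at 0, those after compound PD ran from 0 to 2 (Ung and Gins2, without PD DMSO replicate 1), and those for the difference stayed at 0. The replicate block with a replicate left out gave 0 to 5 after compound OB (5 without replicate 1, with 11.3% of all genes called), 0 to 2 after compound PD (2 without replicate 1, with 1.7%) and 0 to 2 for the difference (Gins2 and Ung, without replicate 1 of the PD set, with 2.47%). Other pathway genes called after compound OB were 0, and 10 of 100 in the block without replicate 1 (11.3% of all genes) and 1 (Cdkn1a) without replicate 2 (1.45%). Those called after compound PD were 0, and 1 (Cdkn2d) without PD DMSO replicate 1 (1.38%). The block without replicate 1 of the PD set also called Cdkn2d (1.7%). In the PD set same-numbered libraries had r of −0.006, −0.029 and −0.022, so the numbers do not pair them; there the block called 41 of all genes in place of 3, and 0 members. Of single values, Pole after compound PD was 0.020 in place of −0.27 in the block without replicate 3. The Rfc1 difference between compounds, −0.09, ran from −0.26 to 0.10 with 1 library left out, above 0 without compound OB replicate 1 (0.07), OB DMSO replicate 3 (0.03) or PD DMSO replicate 1 (0.10), and was 0.15 in the block without replicate 1 of the PD set, where that of Rrm2 was −0.016 in place of 0.17. The cause was not tested. Depth is unknown, so precision rests on 3 libraries a group.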
